A study of Mus musculus with 10 samples.

Results

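A small group of cochlear cells carried Slc47a1, Slc4a10, Igfbp6 and Foxd1, markers of fibroblasts that line fluid barriers. They were chosen from droplet single-cell transcriptomes of the old mouse inner ear by measured values. A cell was kept with at least 200 genes detected, at least 1000 UMIs (unique molecular identifiers, 1 per captured RNA molecule) and under 25% of its UMIs from mitochondrial genes. It was a member with a UMI in at least 3 of 7 genes, Slc47a1, Slc4a10, Igfbp6, Foxd1, Sfrp4, Abcb1a and Ildr2, with a UMI in fewer than 3 of the hair cell genes Myo6, Myo7a, Pou4f3, Tmc1, Kncn and Gfi1, and with no UMI of the endothelial gene Cdh5. By this rule 120 of 7272 cochlear cells were members, a share of 1.65% (exact binomial 95% interval 1.37 to 1.97), out of 17696 cells kept in both organs.

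The mice were wild-type CBA/J animals of 22 months and both sexes. Sensory epithelia of the cochlea and of the vestibule were dissected, tissue of several mice was pooled for each library, and cells were released with collagenase IV. Each organ gave 5 libraries. Younger mice were not analysed here, so no comparison by age was made, and the p-values below measure the spread between pooled libraries.

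As background, fibroblasts are not one kind of cell. Around the brain, the arachnoid barrier layer seals cerebrospinal fluid from the dura with tight junctions, E-cadherin and efflux transporters, while dural and pial fibroblasts on either side of it build matrix. In the cochlea, fibrocytes of the lateral wall recycle potassium and maintain the ionic makeup of the fluids, and the cochlear aqueduct joins the perilymph to the cerebrospinal fluid. Of the genes in the rule, Slc47a1 encodes a proton-coupled exporter of organic cations, Slc4a10 a sodium bicarbonate transporter, and Abcb1a the P-glycoprotein drug efflux pump. Igfbp6 binds insulin-like growth factor II, Foxd1 is a forkhead transcription factor of stromal lineages, Sfrp4 is a secreted modulator of Wnt signalling, and Ildr2 belongs to a family of proteins found at tricellular junctions.

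Some libraries stood apart. Cochlear replicates 1 and 2 shared all 1313 barcodes of replicate 2, among them 6 members, and their summed counts differed by less than sampling noise. Vestibular replicates 1 and 2 shared 1633 of 1641 barcodes in the same way. In both organs replicate 2 was therefore counted as a second reading of replicate 1 and left out of all values below. Any other pair of libraries, across organs included, shared at most 41 barcodes and no member. The deposited barcodes held 2738036 UMIs in cochlear replicate 1, 26974948 in replicate 3, 5349308 in replicate 4 and 5452292 in replicate 5. Replicate 3 thus held the most UMIs, over 12397 barcodes, but its cells were not the deepest: median UMIs per cell kept were 1889, 2063, 3298 and 2360.5 in replicates 1, 3, 4 and 5.

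Members were spread unevenly over the libraries. They made up 6 of 571 cells in replicate 1 (1.05%, exact binomial 95% interval 0.387 to 2.27), 110 of 5070 in replicate 3 (2.17%, 1.79 to 2.61), 3 of 695 in replicate 4 (0.432%, 0.0891 to 1.26) and 1 of 936 in replicate 5 (0.107%, 0.0027 to 0.594). Replicate 3 held 91.7% of all members, and what follows rests on that library and on the 6 cells of replicate 1. The intervals cover counting error only. Members of replicate 3 had a median of 2383 UMIs (1009 to 66299) and 10.3% mitochondrial UMIs, against a median of 2063 UMIs over all cells kept in that library. The mitochondrial share was lower in the populations compared with them below, at 6.80% in other fibroblasts, 8.65% in eotaxin fibroblasts, 7.57% in Dmp1 cells and 7.56% in otospiralin fibrocytes of that library, and its part in the differences was not tested. In replicate 1 the median was 1820 UMIs (1148 to 2911).

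In the vestibule the same rule found 41 of 10424 cells (0.393%, 0.282 to 0.533). The 4 vestibular libraries held 6 of 867 (0.692%), 14 of 5438 (0.257%), 16 of 2448 (0.654%) and 5 of 1671 cells (0.299%) in replicates 1, 3, 4 and 5. The mean share over libraries was 0.94% ± 0.909 (SD, n = 4) in the cochlea and 0.476% ± 0.229 (SD, n = 4) in the vestibule. The difference of 0.464 percentage points was smaller than the spread between cochlear libraries (exact permutation test, two-sided, p = 0.457, smallest possible p 0.0286). Without replicate 3 of both organs the difference was -0.0185 percentage points, so its direction rested on that library.

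**Figure D1:**
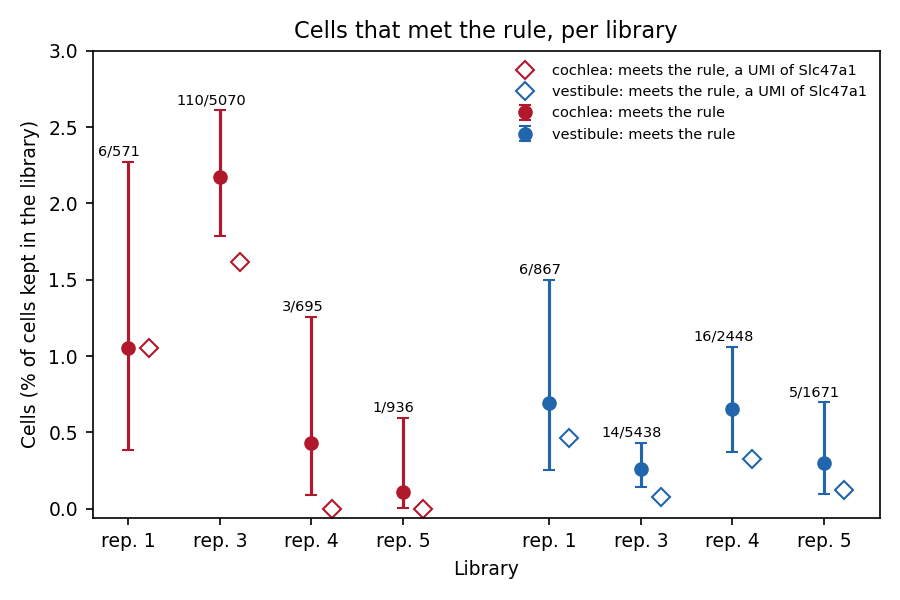
Share of cells kept that met the rule in each cochlear and vestibular library, in percent, with exact binomial 95% intervals as bars and the number of cells beside each point; diamonds give the share of cells that met the rule and had a UMI of Slc47a1. Cochlear replicate 3 was highest at 2.17% and cochlear replicate 5 lowest at 0.107%, and the 4 vestibular libraries lay between 0.257% and 0.692%.

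The label was first checked against its markers. Slc47a1 was found in 88 of the 120 members (73.3%), in 6 of 6 in replicate 1 and 82 of 110 in replicate 3, but in none of the 4 members of replicates 4 and 5. Those 4 cells also had no UMI of Slc4a10 or Mgp, while Igfbp6 was found in 2 of them and Foxd1 in 2, so 3 of the 5 markers of the label were absent there. Of the 120 members, 7 held more than 10000 UMIs. They comprised 4 members of replicate 3 with 27.6% of that library's member UMIs, 2 of replicate 4 and the only one of replicate 5, and 6 of the 7 lacked Slc47a1. The name barrier-like is used below for members of cochlear replicates 1 and 3, and the vestibular cells are called members by the rule.

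The 7 genes of the rule are given as a description, since they chose the cells. Values are UMIs of a gene per 1000000 UMIs summed over the members of a library (CPM). Slc47a1 (chr11:61343401-61378345, minus strand, GRCm38) stood at 2641 CPM in replicate 1 and 626 CPM in replicate 3, and at 835 CPM in replicate 3 without the barcodes over 10000 UMIs. Slc4a10 (chr2:62046462-62326730) stood at 1534 and 808 CPM, and Igfbp6 (chr15:102144362-102149511) at 1704 and 1288 CPM. Apart from Foxd1 (256 and 398 CPM), each of the 7 genes was higher in replicate 1, with Sfrp4 at 1874 and 769 CPM, Abcb1a at 682 and 325 CPM, and Ildr2 at 426 and 330 CPM.

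Because detection rises with depth, shares of cells were also taken after each cell of replicate 3 was thinned to 1000 UMIs. Igfbp6 was then detected in 70.9% of members (84.5% before thinning), Slc4a10 in 57.3% (76.4%), Sfrp4 in 47.3% (68.2%), Slc47a1 in 46.4% (74.5%), Foxd1 in 40% (60.9%), and Abcb1a and Ildr2 each in 36.4% (55.5% and 62.7%). Before thinning, Slc47a1 was detected in 1.15% and Slc4a10 in 1.77% of all other cells of the library. Sfrp4 (31.8%) and Foxd1 (18.2%) were the rule genes most often detected in other fibroblasts, a group defined below, whereas Abcb1a was seen in none of 66.

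At the edge of the rule, 29 members had exactly 3 of the 7 genes and 99 cochlear cells had 2. These values chose or border the choice and carry no test. Among cells with 2 genes Slc47a1 was detected in 9.09%, among members with 3 in 20.7%, and among members with 4 in 75%. Mgp, which encodes matrix Gla protein, an inhibitor of calcification, rose over the same steps from 36.4% to 69% and 91.7%. Fxyd5, which encodes a regulator of the sodium pump, went from 17.2% to 51.7% and 79.2%, and Slc38a2, a sodium-coupled transporter of neutral amino acids, from 56.6% to 79.3% and 95.8%. Median depth in these 3 groups was 2394, 1905 and 2006.5 UMIs, and its part in the steps was not tested.

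**Figure D2:**
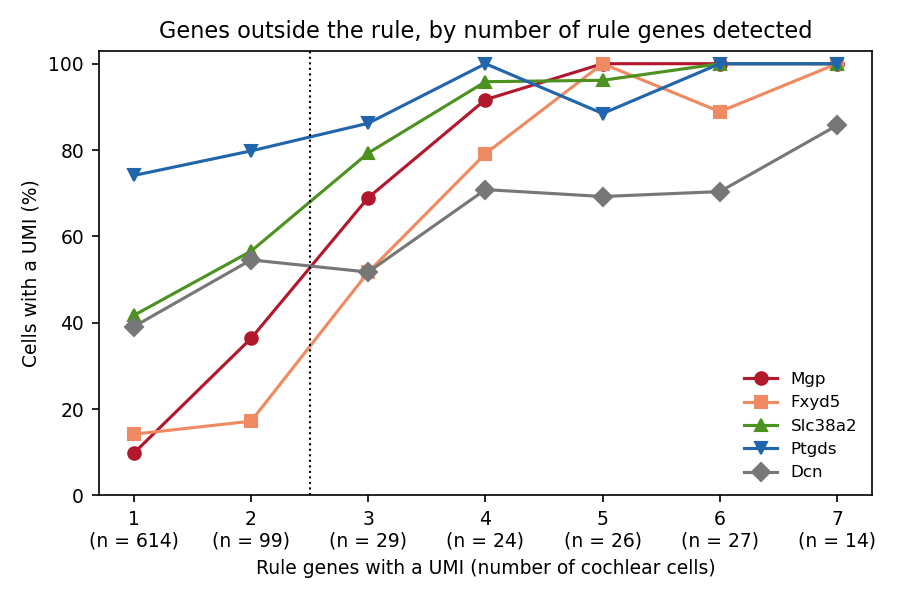
Share of cochlear cells, in percent, with at least 1 UMI of Mgp, Fxyd5, Slc38a2, Ptgds and Dcn, by how many of the 7 rule genes the cell carried; the dotted line marks the limit of 3 genes. Mgp went from 9.77% of cells with 1 rule gene to 100% of cells with 5, while Dcn went from 39.1% to 69.2% and Ptgds was above 70% throughout.

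Slc47a1 itself split the members of replicate 3. The 82 cells with a UMI of Slc47a1 had a median of 2684 UMIs and the 28 without one 1834 UMIs. Mgp was detected in 95.1% and 89.3% of them, but Fxyd5 in 93.9% and 42.9%, and Rspo3, a secreted amplifier of Wnt signalling, in 65.9% and 21.4%. These shares describe cells of replicate 3 split by a gene of the rule, and no test of their difference was made. Depth was lower in the cells without Slc47a1, and its part was not tested. Outside the rule, 57 cells of replicate 3 had Slc47a1, and 41 of these carried at least 3 rule genes and a UMI of Cdh5.

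That exclusion by Cdh5, which encodes the adherens junction protein VE-cadherin, was large. In replicate 3, 175 cells carried at least 3 rule genes, and 65 of them were left out for Cdh5, 35 for a single UMI of it. These 65 cells had a median of 3887 UMIs, and 48 had none of the other endothelial markers Pecam1, Cldn5, Emcn and Flt1. Mgp was detected in 84.6% of them, Fxyd5 in 72.3% and Slc47a1 in 63.1%. Among 178 other cells with Cdh5 and fewer than 3 rule genes, of median depth 2410 UMIs, Mgp was detected in 14%, Slc47a1 in 0, and Emcn, which encodes endomucin, in 48.9%. Without the Cdh5 limit the share of cells meeting the rule was 1.75% in replicate 1, 3.45% in replicate 3 and 0.321% in replicate 5, and the organ difference was 0.775 percentage points (exact permutation test, two-sided, p = 0.429).

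General fibroblast genes were only partly present in the members. In replicate 3, Dcn (decorin, a collagen-binding proteoglycan) was detected in 73 of 110 members and Col1a2 in 65, but Pdgfra, a receptor of mesenchymal cells, in 29, Col3a1 in 28, Col1a1 in 15 and Lum (lumican) in 4. After thinning, Dcn was found in 49.1% of members against 93.9% of other fibroblasts, and Lum in 1.82% against 66.7%. Since other fibroblasts were chosen by these 6 genes, no test was made.

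Markers of several other cell types were present in part of the members. In replicate 3, at least 2 of the 7 markers of perineurial cells, which form the barrier around nerve fascicles, were found in 18 of 110 members and in 1 of 66 other fibroblasts. Their summed level was 383 CPM against 98.5 CPM, with Lypd2 the most abundant at 187 CPM and only Cldn1 at 0 in the members. In the members of replicate 1 it was 256 CPM, with 5 of the 7 markers at 0. What part perineurial cells have in the results was not tested. At least 2 markers of inner ear fibrocytes were found in 62 members of replicate 3, of pial fibroblasts in 14 and of endoneurial fibroblasts in 11, against 59, 40 and 23 of the 66 other fibroblasts. The count was 14 for red blood cells, 9 for myelinating glia (summed level 328 CPM, of which Mbp 238 CPM), 3 for epithelium, 3 for neurons, 2 for macrophages and 2 for endothelial cells. For hair cells it was 0, with Myo6 in 34 cells and the other 5 markers at 0. Haemoglobin Hbb-bs was at 4617 CPM in members of replicate 3 and 1022 CPM in those of replicate 1, and at 11410 CPM over all other cells of replicate 3. Emcn made up 662 of 694 CPM of endothelial UMIs in replicate 3 and was at 6.7 CPM without the barcodes over 10000 UMIs, while other fibroblasts of that library had 659 CPM of Emcn. Counts without the barcodes over 10000 UMIs, and without barcodes carrying at least 2 markers of another cell type (macrophages, mural cells, myelinating glia or epithelium), are given with the comparisons. In replicate 1, markers of hair cells, endothelium, macrophages, mural cells, epithelium, neurons, osteoblasts and melanocytes were all at 0 in the 6 members.

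The members were then compared with other fibroblasts of the cochlea, cells that were not members and carried at least 4 of Col1a1, Col1a2, Col3a1, Dcn, Lum and Pdgfra. There were 91 such cells, of which 66, 7 and 16 came from replicates 3, 4 and 5. Replicate 1 held only 2, under the minimum of 5 cells for a library, so the fit used members of replicates 1 and 3 against fibroblasts of replicates 3, 4 and 5. Of 635 genes tested outside the rules (edgeR quasi-likelihood test with Benjamini-Hochberg adjustment at 0.05), 16 were higher in members (2.52%) and 19 lower (2.99%). The median log2 fold change over all tested genes was 0.02. The 7 rule genes came from cells of these same libraries, so the values that follow are a description of the members. Members came from only 2 libraries, so without replicate 1 or 3 a single member library is left and is assumed to vary like the fibroblast libraries, which also holds for each call said below not to pass without one of them. The count moved with single libraries, from 35 to 32 without replicate 3, 101 without replicate 1, 128 without replicate 4 and 125 without replicate 5, and it was 173 without the barcodes over 10000 UMIs and 108 without barcodes carrying at least 2 markers of another cell type. Among other fibroblasts, 5 barcodes over 10000 UMIs held 49.8% of the UMIs in replicate 3 and 1 held 51.9% in replicate 4.

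Fxyd5 (chr7:31032722-31042481, minus strand) showed the largest difference. It was at 2130 and 1541 CPM in members of replicates 1 and 3 and at 7.58, 0 and 0 CPM in other fibroblasts of replicates 3, 4 and 5, a log2 fold change of 8.11 ± 0.70 (SE). Mgp (chr6:136872435-136875823, minus strand) was at 4942 and 5058 CPM in members and 30.3, 0 and 224 CPM in other fibroblasts (5.96 ± 0.89). Groups did not overlap for either gene, a property of 18.6% of tested genes in the higher and 15.3% in the lower direction. Both genes are in a list of 5 dural fibroblast genes, of which 3 could be tested, 2 were higher and the median log2 fold change was 5.96. Mgp is also among the markers that define the label, so its value is a description only.

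Transporters made up the next group. Slc38a2 (chr15:96687392-96699730, minus strand) was at 10906 and 2693 CPM in members against 227, 274 and 174 CPM (log2 fold change 4.85 ± 0.66). Slc16a9, a transporter of the monocarboxylate family, was at 1789 and 342 CPM against 37.9, 45.7 and 0 CPM (4.70 ± 0.84). Slc23a2, which takes up ascorbate, was at 767 and 291 CPM against 26.5, 0 and 49.9 CPM (3.94 ± 0.87). For all 3 the members of replicate 1 were highest, those of replicate 3 lower and the fibroblast libraries lowest, without overlap. The 2 other fibroblasts of replicate 1, outside the fit, had 1108 CPM of Slc38a2, above those of the other libraries and below the members of either library. In the other direction, the glutamate transporter Slc1a3 was lower (-2.95), as was Slco1c1 (-3.28), a carrier of thyroid hormone and organic anions. Of 30 genes for uptake of amino acids and nutrients only 5 could be tested, with 2 higher, 1 lower and a median of 3.41. Of 26 transporters of organic solutes and drugs 2 could be tested, with Slc16a9 higher, Slco1c1 lower and a median of 0.71. Slc1a3 and Slco1c1 did not pass without replicate 1.

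Transporters below the filter were described by detection in replicate 3. After thinning, the sulfate transporter Slc26a2 was detected in 26.4% of members against 1.52% of other fibroblasts, and the bicarbonate cotransporter Slc4a4 in 22.7% against 3.03%. Car13, a carbonic anhydrase, was detected in 30% against 6.06%, and Abcc4, an efflux pump of organic anions, in 10% against 0%. Unthinned, the shares were 40% and 6.06% for Slc26a2, 44.5% and 7.58% for Slc4a4, 51.8% and 9.09% for Car13, and 25.5% and 1.52% for Abcc4. Median depths were 2383 UMIs in members and 1916.5 in other fibroblasts.

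Few junction genes could be tested against other fibroblasts. Cdh1, which encodes E-cadherin, was detected in 37 of 110 members (33.6%), and after thinning in 13.6% of members, 0% of other fibroblasts and 4.84% of all other cells, but it was at 0 CPM in replicate 1 and 172 CPM in replicate 3. Cldn11, which encodes the claudin of arachnoid and myelin tight junctions, was detected in 13.6% of members against 21.2% of other fibroblasts after thinning and had a log2 fold change of -0.16 ± 0.63. Klf5, a transcription factor of epithelia and arachnoid barrier cells, was detected in 18.2% against 1.52%. Occludin (Ocln) was found in 3 of 110 members. Of 23 tight junction genes 2 could be tested and 0 passed, with a median of 0.01. Of 17 genes of adherens junctions and desmosomes 2 could be tested and 0 passed, with a median of 0.40. Over all 635 genes, 101 had an unadjusted p under 0.05. Against the further populations described below, 10 adherens junction and desmosome genes were tested. Cdh1 and Gjb2 were higher against eotaxin fibroblasts, Cdh1 against Dmp1 cells, and Cdh11 and Gja1 against otospiralin fibrocytes, with 0 lower. Of 5 tight junction genes tested there, Tjp1 was higher against Dmp1 cells.

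Mt1, Mt2 and Rfk were higher, unevenly between members. Mt1, which encodes a metallothionein that binds zinc and copper, was at 10735 and 1897 CPM against 705, 137 and 125 CPM (log2 fold change 4.05 ± 0.81). In the 2 other fibroblasts of replicate 1, Mt1 was at 1551 CPM, so its level was high in both populations of that library. Mt2 was at 3152 and 260 CPM against 133, 0 and 24.9 CPM (4.11 ± 0.99), and its call did not pass without replicate 1. Rfk, which makes flavin mononucleotide, was at 1534 and 512 CPM against 72, 0 and 24.9 CPM (4.05 ± 0.66). Of 25 genes for metallothioneins and antioxidant defence 8 could be tested, only Mt1 and Mt2 passed, and the median was 0.80.

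Signalling genes of the Wnt and BMP pathways were represented by single members. Rspo3 was at 682 and 412 CPM against 64.4, 137 and 150 CPM (log2 fold change 2.32 ± 0.59), and this call did not pass without replicate 3. Id1, a target of BMP receptors, was at 1363 and 352 CPM against 68.2, 137 and 0 CPM (3.44 ± 0.78), and Nbl1, a secreted BMP antagonist, at 1022 and 609 CPM against 83.4, 45.7 and 24.9 CPM (3.53 ± 0.51). Members of both libraries lay above every fibroblast library in all 3. Of 27 Wnt ligands and modulators 2 could be tested, with Rspo3 higher and a median of -0.05. Of 25 BMP and TGF-beta genes 6 could be tested, with Id1 higher, Tgfbi lower (-2.59) and a median of 1.17.

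Matrix genes moved both ways. Fibronectin (Fn1) was at 426 and 568 CPM against 68.2, 183 and 99.7 CPM (log2 fold change 2.5 ± 0.54), whereas laminin alpha 2 (Lama2) was lower (-3.01). Of 60 matrix genes 9 could be tested, with 1 higher, 2 lower (Lama2 and Lox, the latter at -3.93) and a median of -0.07. Against the further populations described below 38 could be tested. Of these 5 were higher and 3 lower against eotaxin fibroblasts, 6 and 7 against Dmp1 cells, and 14 and 1 against otospiralin fibrocytes. Slit2, an axon guidance ligand, was detected after thinning in 18.2% of members against 0% of other fibroblasts, Gdf10 in 15.5% against 1.52% and Col12a1 in 28.2% against 1.52%.

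Among the genes lower in members, transferrin (Trf, chr9:103204001-103230444, minus strand) was at 0 and 38.8 CPM against 2186, 2058 and 3840 CPM (log2 fold change -6.27 ± 0.81). The chemokine Ccl11 was at 85.2 and 4.85 CPM against 383, 457 and 574 CPM (-5.75 ± 0.88), and Cxcl12 at 170 and 63.1 CPM against 837, 640 and 2044 CPM (-4.00 ± 0.82). These were the 2 genes called of 4 tested complement and cytokine genes, whose median was -2.46. Neither chemokine passed without replicate 3. Inmt, a methyltransferase, was also lower (-5.16 ± 0.89).

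Of 5 tested genes of inner ear fibrocytes 1 was lower and 4 were not called, with a median of -1.73. That gene was cochlin (Coch), the main matrix protein of spiral ligament fibrocytes, at 170 and 1118 CPM against 5775, 6265 and 14810 CPM (log2 fold change -3.66 ± 0.86). Of 4 tested genes of mineralization, Mgp was higher and osteopontin (Spp1) lower, with a median of -2.15. Spp1 was at 0 and 526 CPM against 4615, 4253 and 8926 CPM (-4.11 ± 0.89). The adhesion molecule Vcam1 was at 0 and 82.5 CPM against 765, 686 and 997 CPM (-3.51 ± 0.64), and the lipid carrier Apod at 596 and 1521 CPM against 9458, 5716 and 11993 CPM (-3.06 ± 0.69). These 4 calls did not pass without replicate 1. For each of them the lowest fibroblast library was several times the highest member library. Ptgds, which makes prostaglandin D2 and is abundant in arachnoid cells, was detected after thinning in 91.8% of members and also in 62.1% of all other cells of the library.

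**Figure D3:**
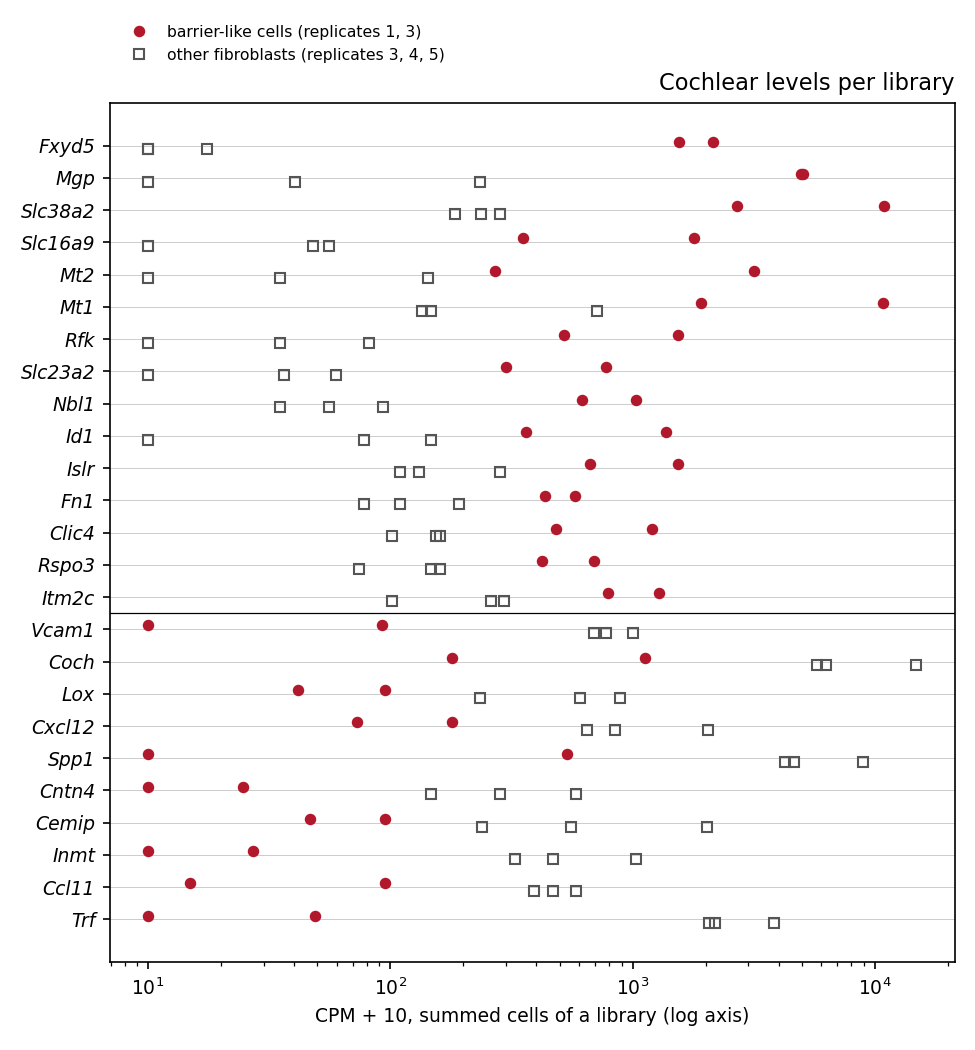
Level of 15 genes higher and 10 genes lower in barrier-like cells, as CPM plus 10 on a log axis, with 1 point per library; members come from cochlear replicates 1 and 3 and other fibroblasts from replicates 3, 4 and 5. The groups do not overlap for any gene shown, a condition of the choice; Fxyd5 has the widest gap above, from 1541 to 7.58 CPM, and Trf the widest below.

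**Figure D4:**
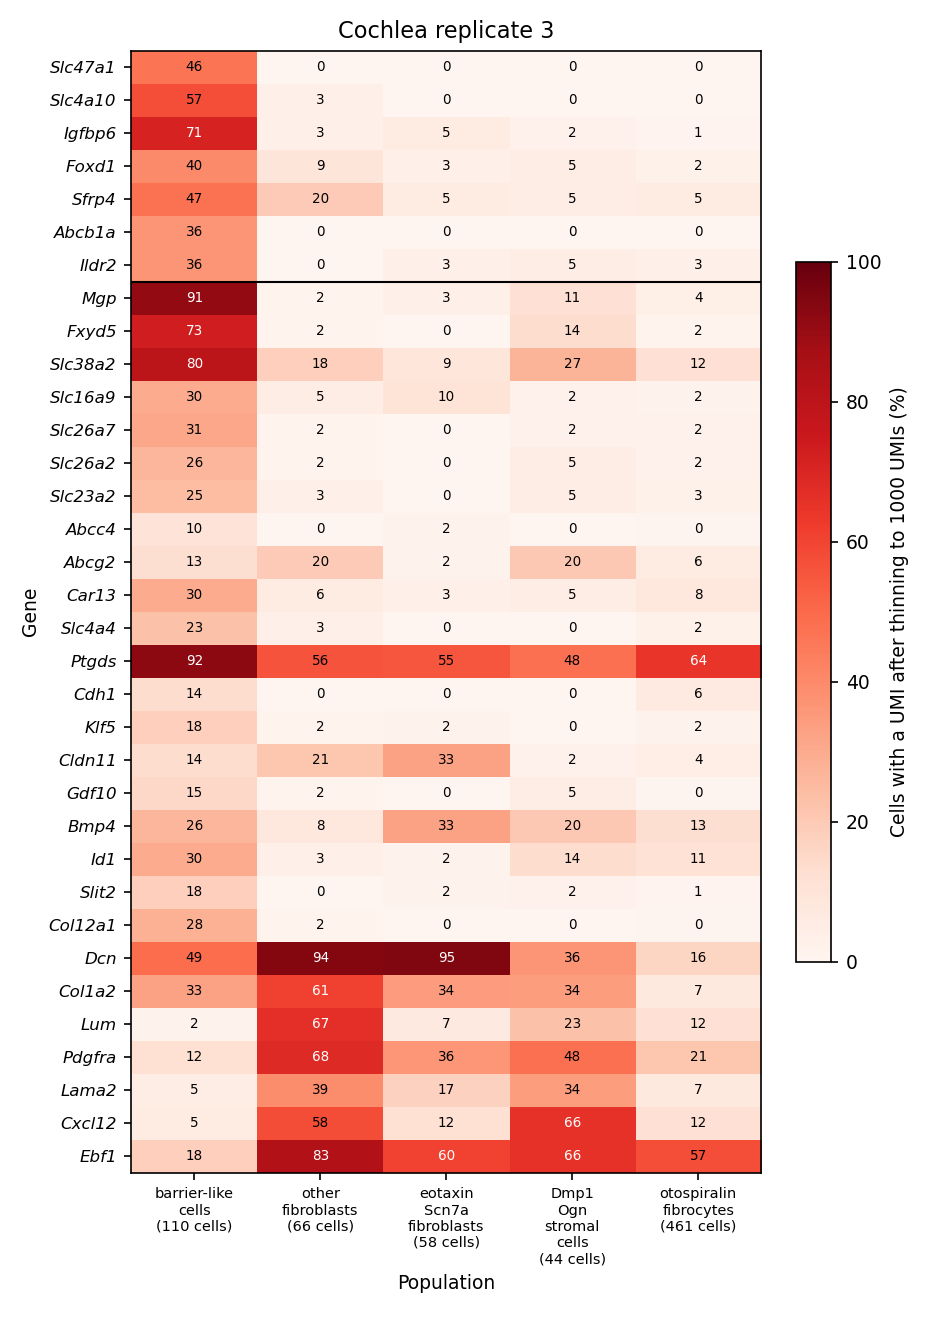
Heat map of the share of cells with at least 1 UMI, in percent, after thinning every cell of cochlear replicate 3 to 1000 UMIs, for 34 genes in 110 barrier-like cells, 66 other fibroblasts, 58 eotaxin Scn7a fibroblasts, 44 Dmp1 Ogn stromal cells and 461 otospiralin fibrocytes; a line separates the 7 rule genes. Mgp reached 90.9% and Fxyd5 72.7% in barrier-like cells against 1.52% each in other fibroblasts, and Dcn and Lum were lower than in other fibroblasts.

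Promoters of a pair of rule genes and of a pair of transcripts higher in members of both organs are shown, as the sequence context of the cells' markers. They are RefSeq windows of GRCm38.p6, from 250 bases before to 50 after the annotated start, 5′ to 3′ on the gene's strand. Motifs searched on both strands were the forkhead core TGTTTAC, the GC box GGGCGG and the TATA box TATAAA, and matches are in capitals. Foxd1 is at chr13:98353995-98354294 (plus strand), Igfbp6 at chr15:102143936-102144235 (plus strand), Fxyd5 at chr7:31042282-31042581 (minus strand) and Slc38a2 at chr15:96699679-96699978 (minus strand).
Foxd1: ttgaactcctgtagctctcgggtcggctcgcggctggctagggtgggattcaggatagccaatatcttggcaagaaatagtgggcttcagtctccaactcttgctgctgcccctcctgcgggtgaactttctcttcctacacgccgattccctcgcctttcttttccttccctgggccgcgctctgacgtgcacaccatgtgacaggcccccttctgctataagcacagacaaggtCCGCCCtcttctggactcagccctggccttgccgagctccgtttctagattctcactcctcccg
Igfbp6: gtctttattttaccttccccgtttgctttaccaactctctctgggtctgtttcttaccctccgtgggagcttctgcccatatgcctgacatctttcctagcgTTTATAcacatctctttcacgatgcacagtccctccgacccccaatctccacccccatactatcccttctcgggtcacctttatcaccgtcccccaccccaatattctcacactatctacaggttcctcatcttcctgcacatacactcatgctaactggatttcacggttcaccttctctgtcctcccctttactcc
Fxyd5: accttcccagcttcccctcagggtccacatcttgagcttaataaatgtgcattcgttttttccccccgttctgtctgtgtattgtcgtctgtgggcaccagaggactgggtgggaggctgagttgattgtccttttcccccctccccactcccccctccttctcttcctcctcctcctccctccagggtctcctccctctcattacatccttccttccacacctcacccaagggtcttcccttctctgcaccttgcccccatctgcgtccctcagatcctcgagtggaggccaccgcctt
Slc38a2: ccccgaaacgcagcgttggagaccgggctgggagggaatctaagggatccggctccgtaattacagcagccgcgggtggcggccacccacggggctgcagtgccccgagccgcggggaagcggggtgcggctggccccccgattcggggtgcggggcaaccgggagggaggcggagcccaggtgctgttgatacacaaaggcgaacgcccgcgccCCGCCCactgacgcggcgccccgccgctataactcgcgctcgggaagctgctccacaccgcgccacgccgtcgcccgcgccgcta
Foxd1 held a GC box with its first base at -14, Igfbp6 a TATA box at -148 and Slc38a2 a GC box at -35, while Fxyd5 held none of these letters. Of the 32851 promoters searched, which are not all those in the table, 35.7% held the GC box, 13.6% the TATA box and 3.65% the forkhead core. A match describes letters and not a binding site.

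To show where the members differ, 3 further stromal populations of the cochlea were fitted together with them. These were 82 eotaxin Scn7a fibroblasts (at least 3 of Ccl11, Scn7a, Abca8a, Dpt, Clec3b, Col15a1 and Pi16), 63 Dmp1 Ogn stromal cells (at least 3 of Dmp1, Ogn, Omd, Bglap, Bglap2, Phex, Ifitm5 and Alpl) and 711 otospiralin fibrocytes (at least 4 of 7 fibrocyte genes, among them Otos, Coch and Otor). Of 4725 genes tested, members were higher in 111 (2.35%), 78 (1.65%) and 177 (3.75%) and lower in 147 (3.11%), 124 (2.62%) and 104 (2.2%). The 3 contrasts share the same member libraries. The called genes fell from 258 to 22 against eotaxin fibroblasts, from 202 to 26 against Dmp1 cells and from 281 to 59 against otospiralin fibrocytes without replicate 3, which leaves 1 member library of 6 cells and 1 library of eotaxin fibroblasts. Only replicates 3 and 5 held enough eotaxin fibroblasts, so without replicate 5 that group is also 1 library. In these fits a lone library is assumed to vary like the other groups, which supply the spread. Without replicate 5 the called genes were 161 against eotaxin fibroblasts and 123 against Dmp1 cells, and without replicate 4 they were 182 against otospiralin fibrocytes.

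The leading genes were higher in members against each of the 3. Mgp had log2 fold changes of 5.92 against eotaxin fibroblasts, 3.93 against Dmp1 cells and 8.03 against otospiralin fibrocytes. Fxyd5 had 0 UMIs in the 82 eotaxin fibroblasts, so members were at least 83.6-fold higher against a floor of 3 UMIs over that group, and its log2 fold changes were 4.85 and 7.23 against the other populations. Rspo3 also had 0 UMIs in eotaxin fibroblasts, at least 22.6-fold lower than members, and log2 fold changes of 2.16 and 5.41. For Slc38a2 the values were 5.93, 3.68 and 4.45, for Rfk 3.77, 3.25 and 3.26, and for Mt1 3.49, 4.01 and 3.39. Trf was lower against each, at -3.39, -5.95 and -2.92.

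Vestibular cells that met the rule came from libraries other than those of the cochlea. They were compared with 115 other vestibular fibroblasts, using members of replicates 1, 3, 4 and 5 and fibroblasts of replicates 3, 4 and 5. Of 927 genes tested, 22 were higher (2.37%) and 17 lower (1.83%), with a median log2 fold change of 0.01 over all genes. The count of 39 was 22 without replicate 5 and 25 without replicate 3, 65 without barcodes over 10000 UMIs, and 60 without barcodes carrying at least 2 markers of another cell type. The cells were chosen by the same 7 genes of the same transcriptomes, and those genes were not tested. Median mitochondrial shares were 13.7% in members and 6.28% in other fibroblasts of replicate 3, and between 2.88% and 3.94% in the other libraries of the fit. One barcode over 10000 UMIs held 49.6%, 41.9% and 27.8% of the member UMIs in replicates 1, 3 and 4. Of the 41 cells 18 had a UMI of Slc47a1 (43.9%) and 26 had exactly 3 rule genes.

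Fxyd5, Mgp and Slc38a2 were higher here as well. Fxyd5 was at 886, 727, 387 and 1171 CPM in members of replicates 1, 3, 4 and 5 and at 18.2, 45.4 and 0 CPM in other fibroblasts (log2 fold change 5.18 ± 0.58). Fxyd5 was so low in other fibroblasts that it passed the filter only through the members, so this value is a description. Mgp was at 6325, 2393, 3176 and 2577 CPM against 382, 423 and 115 CPM (3.45 ± 0.49), given as a description only, since it is a marker of the label. Slc38a2 was at 4184, 1312, 1363 and 4510 CPM against 164, 257 and 177 CPM (3.71 ± 0.49, adjusted p = 0.000582). Every member library lay above every fibroblast library in these 3 genes, but single cells carried some of the values. In replicate 5 all 20 Fxyd5 UMIs and 58 of 77 Slc38a2 UMIs came from 1 of the 5 cells, and in replicate 3 a single cell held 35 of 41 Fxyd5 UMIs and 61 of 74 Slc38a2 UMIs. With the rule applied to thinned cells, which leaves 1 member library of 5 cells, no gene was called, Fxyd5 and Mgp stood at 0.61 and 0.69, and Slc38a2 turned to -1.80. The third tested dural gene, the transcription factor Foxp1, was at 1.41 ± 0.32 (adjusted p = 0.0242), and its adjusted p was 0.229 without replicate 3 and 0.133 without replicate 5.

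Slc26a7, Klf5 and Cldn11 were higher in vestibular members. Slc26a7, an anion exchanger and chloride channel, was at 960, 337, 341 and 293 CPM against 0, 15.1 and 0 CPM (log2 fold change 6.80 ± 0.78). Klf5 was at 295, 177, 387 and 293 CPM against 9.09, 15.1 and 8.87 CPM (4.55 ± 0.51). Slc26a7 and Klf5 were so low in other fibroblasts that they passed the filter only through the members, so their values are a description. Cldn11 was at 984, 408, 465 and 996 CPM against 127, 30.2 and 88.7 CPM (2.72 ± 0.43). Cldn11 also passed the filter only through the members, so its value is a description too. In replicate 1 a single cell held 30 Cldn11 UMIs and the other members at most 5. On thinned cells Cldn11 turned to -0.40. Klf5 and Cldn11 were the 2 genes called of 5 tested arachnoid genes. That count and the median of 2.71 depend on the same filter. In the cochlea, 0 of 2 tested arachnoid genes were called against other fibroblasts, with a median of 1.38. There, 8 arachnoid genes could be tested against the further populations, of which 4 were higher and 2 lower (Dpp4 and Aldh1a2) against eotaxin fibroblasts, 4 higher against Dmp1 cells and 3 higher against otospiralin fibrocytes. Of 8 tested uptake transporters 3 were higher and 3 lower, among the latter the cystine transporter Slc7a11 (-2.79 ± 0.62, adjusted p = 0.0202, and 0.107 without replicate 5), and the median was -0.67.

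Rspo3 was higher as well, at 542, 372, 775 and 1171 CPM against 68.2, 45.4 and 35.5 CPM (log2 fold change 3.51 ± 0.43), and turned to -0.53 on thinned cells. Rspo3 passed the filter only through the members, so its value is a description. Lypd2, a small GPI-anchored protein and 1 of the 7 perineurial markers, was at 197, 142, 310 and 234 CPM against 4.54, 0 and 0 CPM (5.72 ± 0.71). It was so low in other fibroblasts that it passed the filter only through the members, so this value is a description. Of the 2 perineurial markers that could be tested Lypd2 was the 1 called, with a median of 3.34 that depends on the same filter. What part perineurial cells have in this was not tested. In the cochlea 0 of these markers could be tested against other fibroblasts, and Perp was the 1 of 2 tested that was higher both against eotaxin fibroblasts and against otospiralin fibrocytes. Igfbp2, a carrier of insulin-like growth factors, was lower at 148, 160, 155 and 176 CPM against 982, 514 and 586 CPM (-2.24 ± 0.34, adjusted p = 0.00202). Spp1 was lower at 271, 620, 232 and 58.6 CPM against 1622, 1739 and 1659 CPM (-2.41 ± 0.42, adjusted p = 0.00375). Trf was lower at 394, 1117, 976 and 58.6 CPM against 2476, 4264 and 2928 CPM (-2.27 ± 0.51, adjusted p = 0.0234, but 0.067 without replicate 1 and 0.076 without replicate 4). None of the 5 genes Rspo3, Lypd2, Igfbp2, Spp1 and Trf overlapped between groups, a property of 8.95% of tested genes in the higher and 5.39% in the lower direction. The transcription factor Ebf1 (-1.25, adjusted p = 0.0149) and the lysophosphatidic acid enzyme Enpp2 (-1.68, adjusted p = 0.0382) were lower, but with the library as a replicate block their adjusted p was 0.053 and 0.089, and neither passed without replicate 3 or without replicate 5.

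Side by side, 564 genes were tested in both organs. Of these 24 were called in the cochlea and 33 in the vestibule, and 13 in both, which is 54.2% and 39.4% of the calls. The 13 had the same direction in both organs, with Fxyd5, Mgp, Slc38a2, Slc23a2, Rspo3, Rfk and Nbl1 higher and Trf, Spp1, Lama2, Tgfbi, Slc1a3 and Cp (ceruloplasmin) lower. Mgp, a marker of the label, is a description here as well. So are the other higher genes in the cochlea, which passed the filter only through the members. In the vestibule the same holds for Fxyd5, Slc23a2, Rspo3, Rfk and Nbl1. Cells of both organs were chosen by the same 7 genes. Several of the 13 calls did not hold under all alternatives. In the vestibule Slc1a3 lost its call in 6 of 15 alternatives, Rfk, Nbl1 and Trf in 5 of 15 each and Tgfbi in 5 of 12, and in the cochlea Rspo3 lost it in 6 of 14. In the vestibule, Slc23a2 kept its call in 7 of 10 alternatives, and on thinned cells it turned to -0.23, as Slc38a2 and Rspo3 turned to -1.80 and -0.53. Cldn11 stood at -0.16 ± 0.63 in the cochlea and 2.72 ± 0.43 in the vestibule. A test of the difference between the organs (interaction term, edgeR) called 0 of 1706 genes, with 92 at an unadjusted p under 0.05. For Cldn11 the cochlea minus vestibule difference was -2.93 ± 0.71 (SE, log2) with an adjusted p of 0.332, and for Slc26a7 -5.59 ± 1.37 with the same adjusted p. No gene was thus shown to differ in its contrast between organs.

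**Figure D5:**
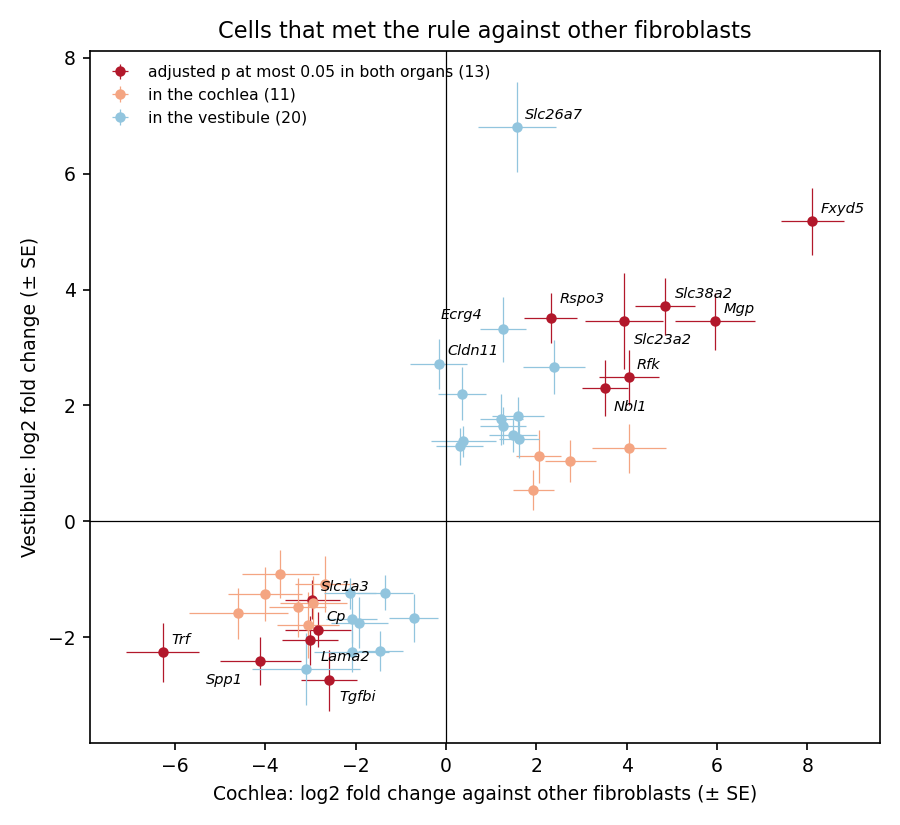
Log2 fold change of cells that met the rule against other fibroblasts in the cochlea (horizontal axis) and in the vestibule (vertical axis), with SE as bars, for the genes tested in both and called in either organ: 13 in both, 11 in the cochlea and 20 in the vestibule. Genes called in both lie in the upper right or lower left, Fxyd5 at 8.11 and 5.18 and Trf at -6.27 and -2.27.

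Members of the cochlea were last set against those of the vestibule directly. Of 839 genes tested, 2 were higher (0.238%) and 2 lower (0.238%) in the cochlea, with a median log2 fold change of -0.07. Mt1 was at 10735 and 1897 CPM in the cochlea, 6316 ± 6250 (SD, n = 2), and 464 ± 211 CPM in the vestibule (SD, n = 4), a log2 fold change of 3.59 ± 0.59 (adjusted p = 0.0382). Hbb-bs, a red blood cell transcript, was higher by 3.87 ± 0.75 (adjusted p = 0.0458), and Srgn, which encodes the proteoglycan serglycin of blood-forming cells, was lower (log2 fold change -2.68 ± 0.48, adjusted p = 0.04). In these 3 genes the organs did not overlap, as in 9.42% of tested genes in the higher and 6.32% in the lower direction. The remaining gene was Ucma, a cartilage matrix protein, at 0 and 4.85 CPM in the cochlea and 665, 638, 1332 and 0 CPM in the vestibule, which overlap. The count of 4 was 15 without replicate 1, 2 without replicate 3, 0 without replicate 4 and 18 without replicate 5, and it was 0 without the Cdh5 limit.

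Members of the 2 cochlear libraries also differed from each other, which sets how precise a cochlear mean can be. With Poisson 95% intervals that cover counting error only, Slc38a2 was at 10906 CPM (9098 to 12967) in replicate 1 and 2693 CPM (2537 to 2856) in replicate 3, and Mt1 at 10735 CPM (8943 to 12782) and 1897 CPM (1767 to 2035). The immediate early genes Egr1 (1022 and 117 CPM) and Jun (937 and 129 CPM) differed the same way. Mgp was nearly level, at 4942 and 5058 CPM. The summed members held 11737 UMIs in replicate 1 and 412184 in replicate 3, so only the latter carried depth for low transcripts.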

How the data were processed

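Droplet single-cell RNA libraries (10x 3′ v3.1) of old cochlear and vestibular sensory epithelium were deposited by the authors as matrices of UMI counts, whole numbers per gene and barcode that were not normalized. Per the labels they were made with Cell Ranger 6.1.2 on mm10, while the headers of the matrices give 5.0.1 in each organ's replicates 1 and 2 and 6.1.2 in the others. Cells were kept and chosen by the limits given at the start of the report, and no annotation of cell types was used. Members, gene lists and named genes were chosen with earlier results of these data known.

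UMI counts were summed over the cells of a population in each library that held 5 or more of them, and these sums entered edgeR 4.0.16 (R 4.3.3; TMM, filterByExpr, glmQLFit and glmQLFTest, Benjamini-Hochberg adjustment at 0.05) over all genes that passed the filter, without the genes of the rules. Shares of cells were compared by an exact permutation test over libraries (scipy 1.17.1), and intervals were exact binomial or Poisson. The fitting code was tested on simulated data. Named genes were the called genes with the largest fold changes whose libraries did not overlap and that reached 50 CPM, up to 15 higher and 10 lower, with the most abundant and most changed members of each list. Ucma was named after its values were seen, and so was the Cdh5 group.

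Members and other cells with the same replicate number come from the same library, so the contrasts within an organ are paired by design. In the vestibule deviations of same-numbered samples correlated at 0.0788, 0.172 and 0.17. Between organs the numbers are only shared (0.108 and 0.0957). Alternatives were another normalization (DESeq2 size factors), the DESeq2 1.42.0 test, no filter, each replicate left out, a replicate block, replicate 2 in place of 1, other limits on the rule genes, thinned cells and removal of mixed barcodes. Leaving out barcodes over 10000 UMIs, asking for Slc47a1 and dropping the Cdh5 limit were added after seeing the data. No doublet caller was run. The rule for otospiralin fibrocytes used 7 genes, of which 1 is not reported here. Promoters came from RefSeq, with entries for 5 of the 7 rule genes and 5 of the 7 genes higher in both organs.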

Additional observations from a re-analysis of the deposited data

Results flagged for a closer look

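In all, 42 groups of 4 libraries were checked for 1 library far from the others (Dixon's test of the gap over the range, 95% level). These were the share of members in each organ and the levels of named and rule genes in vestibular members. The test was passed by 3 groups, all of them gene levels, where chance gives about 1 group in 20. Scara3, a scavenger receptor, was at 703 CPM in the 5 members of replicate 5, with UMIs in 3 of them, and at 222 to 284 CPM in the other libraries. Sfrp4, a gene of the rule, was at 2343 CPM there, from 2 cells with 29 and 11 UMIs, and at 279 to 443 CPM elsewhere. Slc26a7 was at 960 CPM in the 6 members of replicate 1, with UMIs in 5 of them, and at 293 to 341 CPM elsewhere.

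Outside the comparisons, 102 cochlear and 14 vestibular barcodes met the rule on genes but failed a limit on cells, 98 of the former in replicate 3. A further 71 cochlear and 16 vestibular cells carried at least 3 rule genes and were left out for a UMI of Cdh5.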

How the results depend on the processing

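The direction of the named genes was kept in all but 4 values, all in the vestibule with the rule applied to thinned cells, which leaves 1 member library of 5 cells: Slc38a2 (-1.80), Rspo3 (-0.53), Slc23a2 (-0.23) and Cldn11 (-0.40). Of the values for single genes, 1389 kept their side of the threshold and 315 lost it. Counts of called genes moved by over 1.5 times as follows, and the cause was not tested except where the number of libraries shows it. Against other cochlear fibroblasts the count of 35 became 90 with at least 4 rule genes, 108 without mixed barcodes, 86 on thinned cells and 173 without barcodes over 10000 UMIs, and ranged from 32 to 128 with 1 replicate left out. Without the filter it was 43, with 36 higher and 7 lower. Against vestibular fibroblasts 39 became 125 without the filter, 10 with at least 2 rule genes, 60 without mixed barcodes, 0 on thinned cells and 65 without barcodes over 10000 UMIs, and ranged from 22 to 36. Against eotaxin fibroblasts 258 became 132 with DESeq2, 430 with at least 4 rule genes, 406 on thinned cells and 146 with no Cdh5 limit (22 to 285). Against Dmp1 cells 202 became 108 with DESeq2, 335 with at least 4 rule genes and 313 on thinned cells (26 to 179). Against otospiralin fibrocytes 281 became 154 with DESeq2, 533 without the filter, 138 with at least 2 and 584 with at least 4 rule genes, 546 on thinned cells and 131 with no Cdh5 limit (59 to 386). Between organs 4 became 8 with DESeq2, 35 without the filter, 141 with at least 2 rule genes, 1 with at least 4, 1 on thinned cells, 7 with a UMI of Slc47a1 and 0 with no Cdh5 limit (0 to 18). The difference in share ranged from -0.0185 to 0.693 percentage points with 1 replicate left out, and was 0.775 with no Cdh5 limit.

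With a replicate block, the counts were 38 in the vestibule, 258 against eotaxin fibroblasts, 212 against Dmp1 cells, 260 against otospiralin fibrocytes and 23 between organs, where samples share only a number. No paired analysis was possible because the block leaves no residual degrees of freedom against other cochlear fibroblasts. Of 4 cochlear libraries, only replicates 1 and 3 held at least 5 members, the former 6 cells of 11737 UMIs, which limits what can be seen of low transcripts there.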

Other observations

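Against other cochlear fibroblasts no call was made by edgeR among transcription factors of patterning (6 tested, median log2 fold change -0.86), the IGF axis (3 tested, -1.40) and retinoic acid genes (2 tested, -0.39). Each of these lists held calls in the fit with the 3 further populations, where more genes could be tested. Of 22 patterning factors, Foxc2 and Zic1 were higher and Osr1 and Osr2 lower than in eotaxin fibroblasts, Twist1 was higher than in Dmp1 cells, and Foxp2, Foxc2 and Zic1 were higher and Gata3 and Nr2f1 lower than in otospiralin fibrocytes. Of 8 IGF genes, 3 were lower against eotaxin fibroblasts, 3 were lower against Dmp1 cells, and 1 was higher and 1 lower against otospiralin fibrocytes. Of 8 retinoic acid genes, 3 were lower against eotaxin fibroblasts, and Crabp2 was higher against both other populations. Detection in cochlear replicate 3 showed how these genes lay in single members. After thinning, the forkhead gene Foxc1 was found in 20% of members and 30.3% of other fibroblasts, whereas Ebf1, a factor of the stromal and B lineages, was found in 18.2% against 83.3%. Foxp2, another forkhead gene, was found in 27.3% against 18.2%. Igfbp4, a carrier of insulin-like growth factors, was found in 30% against 54.5%. Prg4, which encodes the lubricant lubricin of joint linings, was found in 17.3% of members, 0% of other fibroblasts and 0.423% of all other cells, but was at 0 CPM in the 6 members of replicate 1. It was picked out after its values were seen.

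Against other cochlear fibroblasts, 0 of 5 interferon and antigen presentation genes (median 0.49) and 0 of 5 immediate early and stress genes (median 0.33) were called by edgeR, with 101 of all 635 genes at an unadjusted p under 0.05. In the fit with the further populations, Cd74 was higher and Ifit1 lower against eotaxin fibroblasts, Jun and Jund were higher against Dmp1 cells, and H2-Aa, Cd74 and Klf2 were higher and Fos lower against otospiralin fibrocytes. In the vestibule, Ifit1, an interferon-induced gene, was at 3175 CPM in members of replicate 1, all from 1 barcode over 10000 UMIs, and at 17.7, 15.5 and 0 CPM in replicates 3, 4 and 5. Cdkn2a, a marker of senescence, had 0 UMIs in members of every cochlear and vestibular library analysed. Ptgds differed widely between vestibular members, at 23997, 181510, 168940 and 1640 CPM, and a few barcodes carried most of it. In replicate 3, 1 barcode of 23655 UMIs without Slc47a1 held 9039 Ptgds UMIs and the other members at most 468. In replicate 4, 3 barcodes with exactly 3 rule genes and no Slc47a1 held 5301, 2886 and 1294 Ptgds UMIs and the other members at most 734. In replicate 1, 631 were in the 1 barcode over 10000 UMIs and at most 175 in each other member.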
